A study of Homo sapiens with 4 samples.

Results

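The genes described here encode 9 apolipoproteins (APOA1, APOA2, APOA4, APOB, APOC1, APOC3, APOE, APOH and APOM) and MTTP, the microsomal transfer protein that loads lipid onto APOB. They were taken by name from a fixed list, and all 10 were found, by NCBI Gene number, among the 46427 gene numbers of the deposited tables. Huh7 and HepG2, established human lines labelled as hepatocellular carcinoma, were transfected for 5 h with a negative control siRNA at 20 nM (NC-siRNA, genotype given as WT) or with a single siRNA against COP1 (COP1-siRNA, genotype given as COP1 Knockdown), and harvested 48 h later. RNA was sequenced from 4 libraries, 1 for each line with each siRNA, which the labels place in the same batch. No difference below therefore has a replicate check, an error or a p-value, and NC-siRNA is the only control, since no untransfected library was analysed here.

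Apolipoproteins are the protein coat of the particles that carry lipid in plasma. In the hepatocyte, MTTP transfers triglyceride and phospholipid to the growing APOB chain in the endoplasmic reticulum, which gives the precursor of very low density lipoprotein (VLDL), while APOA1 and APOA2 are the main proteins of high density lipoprotein (HDL). The small exchangeable apolipoproteins APOC1, APOC3 and APOE move between particles and act on lipases and receptors. Hepatoma lines that secrete these proteins are widely used as models of lipoprotein production, and COP1 is an E3 ubiquitin ligase that marks other proteins for degradation.

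Values are given as TPM, a measure of transcript abundance that is scaled by gene length and has the same sum in each library. COP1, the targeted gene, stood at 19.7 TPM with NC-siRNA and 6.18 with COP1-siRNA in Huh7, and at 26.9 and 16.1 in HepG2. In Huh7 31.4% of the control level was left and in HepG2 59.9%, so the knockdown was shallower in HepG2. All 10 hepatocyte markers were at 1 TPM or more in every library, with a summed level of 18918 and 16844 TPM in Huh7 and 2591 and 3003 TPM in HepG2 (NC-siRNA, then COP1-siRNA). The leukocyte genes PTPRC and AIF1 and the intestinal genes SI and CDX1 were listed at 0 in all 4 libraries, while other genes of the marker lists, such as CD68 (15.6 to 58.2 TPM), KRT19 (53.2 to 207) and CDX2 (8.28 to 26.3), were above 1. How many reads were sequenced is unknown. Coverage divided by FPKM put the COP1-siRNA library at 1.13 times the depth of its control in Huh7 and 1.27 times in HepG2.

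The 10 genes together made up 0.764% and 0.638% of all TPM in Huh7 (NC-siRNA, then COP1-siRNA) and 0.188% and 0.227% in HepG2. With NC-siRNA their levels ran from 1.26 TPM (APOA4) to 3443 TPM (APOA2) in Huh7 and from 1.89 to 834 TPM, for the same genes, in HepG2. In Huh7 with NC-siRNA, APOA2 was the 23rd and APOE the 46th highest of all genes by TPM, while APOA4, an apolipoprotein made mainly by the intestine, was the 12233rd. In HepG2 with NC-siRNA, APOA2 was again the highest of the members, at rank 161, followed by APOH at rank 456. MTTP was at rank 2857 in Huh7 and 9804 in HepG2. With NC-siRNA the order in Huh7 was APOA2, APOE, APOC1, APOB, APOA1, APOH, MTTP, APOC3, APOM and APOA4, and in HepG2 it was APOA2, APOH, APOE, APOA1, APOC1, APOB, APOC3, APOM, MTTP and APOA4. With 1 library per condition no spread is available, and neighbours such as APOC1 and APOB in HepG2 (100.1 and 94.95 TPM) cannot be ordered: with COP1-siRNA they stood the other way round, at 102.0 and 141.8.

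**Figure D1:**
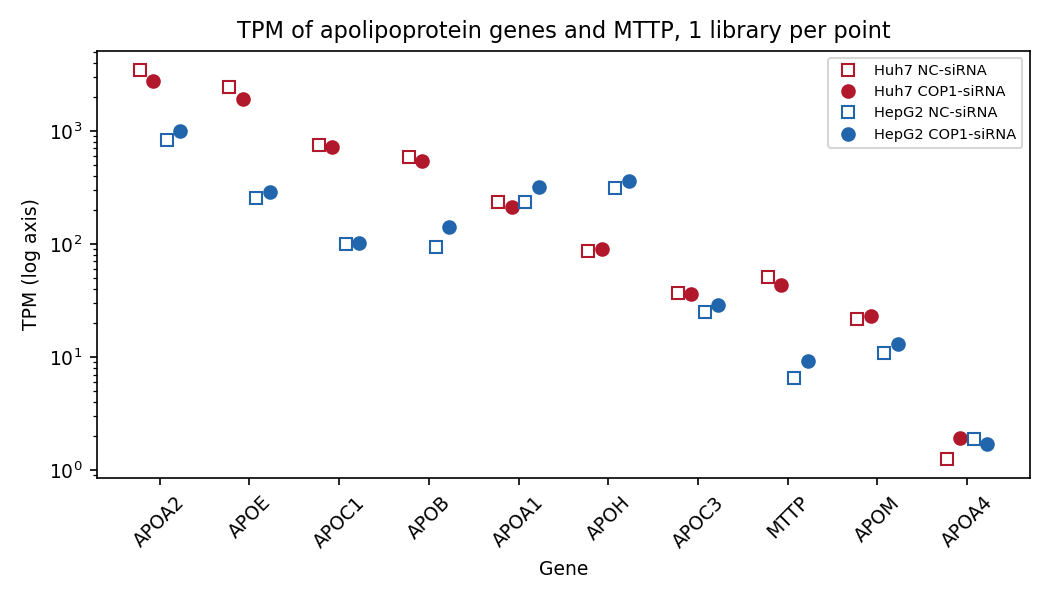
TPM of the 10 genes on a log axis, ordered by their mean over the libraries, with 1 point per library (red Huh7, blue HepG2, open squares NC-siRNA, filled circles COP1-siRNA). APOA2, APOE, APOC1, APOB and MTTP lie higher in both Huh7 libraries, APOH lies higher in both HepG2 libraries (314 and 360 against 86.9 and 89.6 TPM), and the siRNAs lie close together within a line.

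The first question was whether COP1-siRNA changed these genes relative to NC-siRNA. None of the 10 members reached 2-fold in either line. Differences are log2 of TPM + 1 in the COP1-siRNA library minus log2 of TPM + 1 in its control, over genes at 1 TPM or more in at least 1 of the libraries compared, which all 10 members were. For comparison, 1.08% of 13000 genes in Huh7 and 0.934% of 14456 genes in HepG2 passed 2-fold in either direction. Among genes at 100 TPM or more in at least 1 of the libraries, which included 5 members in Huh7 and 6 in HepG2, these shares were 0.847% and 0.243%, so a count of 0 among 10 genes is near the background. In HepG2 APOB, at 94.95 and 141.8 TPM, entered this set only through its COP1-siRNA library. In Huh7 7 of the 10 were below 0 and 3 above, with a median of -0.09 (-0.03 with FPKM in place of TPM), whereas 49.9% of all tested genes were above 0. In HepG2 9 of the 10 were above 0 and 1 below, with a median of 0.21, and 48.3% of all tested genes were above 0. The medians over all tested genes were -0.00 in Huh7 and -0.01 in HepG2.

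APOB and MTTP lay below 0 in Huh7 and above 0 in HepG2. The same held for APOA1, APOA2, APOC1, APOC3 and APOE, so it was not particular to genes of APOB-containing particles. APOB, the structural protein of VLDL and of low density lipoprotein, stood at 592 TPM with NC-siRNA and 547 with COP1-siRNA in Huh7, and at 94.95 and 141.8 in HepG2. The control library was thus the higher of the pair in Huh7 and the lower in HepG2. The log2 difference was -0.12 in Huh7 and 0.57 in HepG2, where it was larger than that of 97.3% of all tested genes. MTTP stood at 51.2 and 43.5 TPM in Huh7 and at 6.51 and 9.23 in HepG2. Its log2 difference was -0.23 in Huh7 and 0.45 in HepG2, the latter larger than that of 95.4% of all tested genes. APOB and MTTP kept a similar proportion to each other, with an APOB to MTTP ratio of 11.6 and 12.6 in Huh7 and 14.6 and 15.4 in HepG2.

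Among the HDL genes, APOA1, which activates the plasma enzyme that esterifies cholesterol, was at 234.0 TPM with NC-siRNA and 212.2 with COP1-siRNA in Huh7, and at 233.8 and 317.1 in HepG2. The NC-siRNA libraries of the lines were level and the COP1-siRNA libraries were not. The log2 differences of APOA1 were -0.14 and 0.44, and that in HepG2 was larger than that of 95.2% of all tested genes. APOA2, the second protein of HDL, was at 3443 and 2784 TPM in Huh7 and at 834 and 1006 in HepG2. Its log2 difference was -0.31 in Huh7, lower than in all but 11.2% of tested genes, and 0.27 in HepG2. APOM, the lipocalin that carries sphingosine 1-phosphate on HDL, was at 21.6 and 23.1 TPM in Huh7 and 10.9 and 12.9 in HepG2, which gave log2 differences of 0.09 and 0.22. The APOM value is uncertain, because the gene overlaps BAG6 on the other strand (131 to 203 TPM) and the sources used here do not say whether strand was used in the counting. APOA1 also overlaps a gene on the other strand, APOA1-AS, which was at 0.03 TPM or less in every library.

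Among the exchangeable apolipoproteins, APOE, the ligand for receptors that clear remnant particles, was at 2427 TPM with NC-siRNA and 1930 with COP1-siRNA in Huh7, and at 257 and 289 in HepG2. The log2 difference of APOE in Huh7, -0.33, was the lowest of the 10 members there, and in HepG2 it was 0.17. APOC1, an inhibitor of the cholesteryl ester transfer protein, was nearly level between siRNAs in both lines, at 746 and 717 TPM in Huh7 and 100.1 and 102.0 in HepG2. APOC3, an inhibitor of lipoprotein lipase, was likewise close, at 36.9 and 36.2 TPM in Huh7 and 25.2 and 28.9 in HepG2. The log2 differences in Huh7 and HepG2 were -0.06 and 0.03 for APOC1 and -0.03 and 0.19 for APOC3. APOH, beta-2-glycoprotein I, which binds anionic phospholipid, was at 86.9 and 89.6 TPM in Huh7 and 314 and 360 in HepG2, with log2 differences of 0.04 and 0.20. APOA4 was the member with the lowest level, at 1.26 and 1.93 TPM in Huh7 and 1.89 and 1.72 in HepG2. It rested on a mean coverage of 3.37 to 6.10 reads per base, against 16.0 to 136 for MTTP and 2077 to 9218 for APOA2, so its log2 differences of 0.38 and -0.09 are the least precise of the 10.

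**Figure D2:**
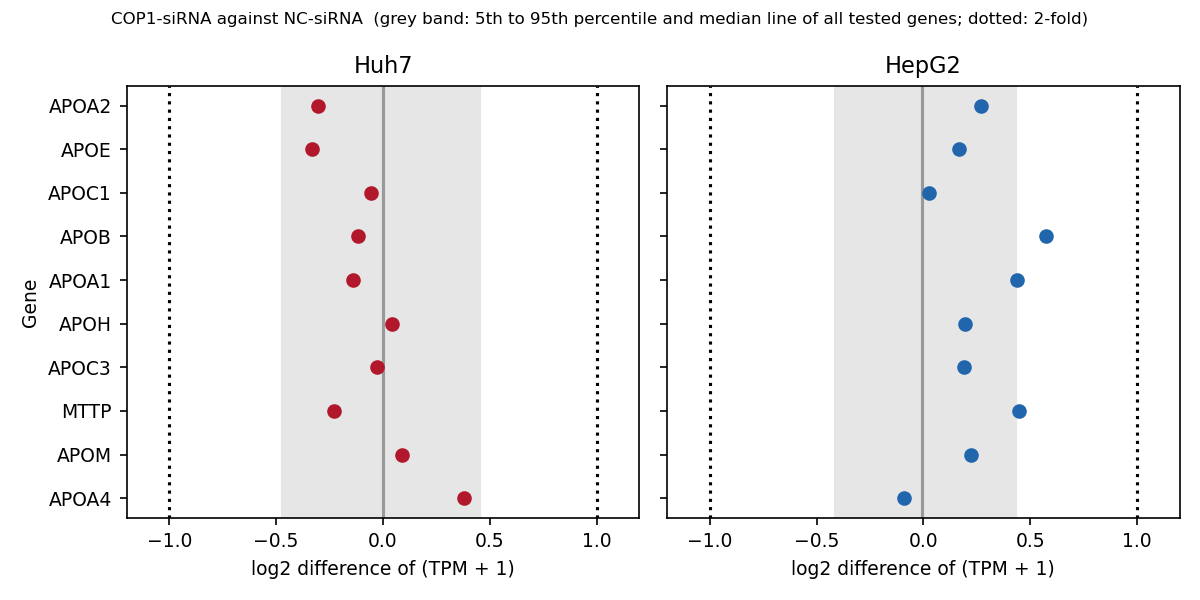
log2 difference of TPM + 1 between COP1-siRNA and NC-siRNA for each of the 10 genes in Huh7 (left) and HepG2 (right), 1 library per siRNA. The grey band spans the 5th to 95th percentile of all tested genes, which is -0.47 to 0.45 for Huh7 and -0.41 to 0.43 for HepG2, the grey line is their median and dotted lines mark 2-fold. No point reaches 2-fold, and in HepG2 APOB, MTTP and APOA1 lie above the band.

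The difference between the lines' responses was itself computed for each gene, as the log2 difference in HepG2 minus that in Huh7. It was positive for 9 of the 10 members, with a median of 0.36. Over the 11970 genes tested in both lines the median was 0.01 and the 5th to 95th percentile range was -0.47 to 0.48. The share of those genes with a positive difference was not computed, so the count of 9 is a description only. The difference was 0.69 for APOB, 0.68 for MTTP, 0.58 for APOA1 and for APOA2, 0.50 for APOE and -0.47 for APOA4. With 1 library per condition this difference could not be tested. Hepatocyte markers moved with it: in HepG2 9 of 10 were above 0 with COP1-siRNA, with a median of 0.38, and in Huh7 8 of 10 were below 0, with a median of -0.08. The fibrinogen chains FGB and FGA were more than 2-fold higher with COP1-siRNA in HepG2 (6.97 to 15.5 TPM and 18.997 to 41.5 TPM), with log2 differences of 1.05 and 1.09, against -0.03 and -0.10 in Huh7. HP was the hepatocyte marker that lay on the other side in each line, at -0.13 in HepG2 and 0.39 in Huh7. The depth of COP1 knockdown also differed between the lines, and the part of either in the members' values was not tested. In bulk RNA, fewer cells that make a transcript and less of it per cell cannot be told apart.

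The second comparison was between the lines. Of the 10 members, 5 were at least 2-fold higher in Huh7 with NC-siRNA (APOA2, APOB, APOC1, APOE and MTTP) and 1 was at least 2-fold lower (APOH), and the same genes passed with COP1-siRNA. Of the 15055 genes tested with NC-siRNA, 14.7% were 2-fold higher and 27.9% 2-fold lower in Huh7, and of the 15126 genes tested with COP1-siRNA, 14% were higher and 26% lower. Among genes at 100 TPM or more the shares were 21.2% higher and 17.5% lower with NC-siRNA and 19.7% higher and 16.6% lower with COP1-siRNA. The member count of 5 in 10 is thus above the share of all genes and of highly expressed genes that were higher in Huh7, without a test. In 7 members both Huh7 libraries lay above both HepG2 libraries, which held for 31% of the 15486 genes at 1 TPM or more in any library. In 1 member, APOH, both HepG2 libraries lay above, which held for 56.5% of those genes, and APOA1 and APOA4 overlapped between the lines. The libraries of one line are not replicates, since they received different siRNAs.

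The member with the largest log2 difference between lines was APOE, at 3.23 with NC-siRNA and 2.74 with COP1-siRNA, which is a TPM ratio of 9.45 and 6.68. APOC1 differed by 2.89 and 2.80 on the log2 scale, a TPM ratio of 7.45 and 7.03. MTTP differed by 2.80 and 2.12 and APOB by 2.63 and 1.94. The gap between the lines was narrower with COP1-siRNA for both, as it was for APOE, APOC1, APOA2, APOM and APOC3. This narrowing restates the difference between the lines' responses given above. APOA2 differed by 2.04 and 1.47. For APOH the difference was -1.84 and -1.99, that is, the Huh7 level was 0.277 and 0.249 times that of HepG2. APOM (0.92 and 0.79), APOC3 (0.53 and 0.31) and APOA4 (-0.36 and 0.11) stayed under 2-fold. APOA1 was at 0.00 with NC-siRNA and -0.58 with COP1-siRNA. In 8 of the 10 members the smaller of these line differences was larger in size than the larger of the siRNA differences, the exceptions being APOA1 and APOA4. The share of all genes for which this holds was not computed, so the count only describes these genes.

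**Figure D3:**
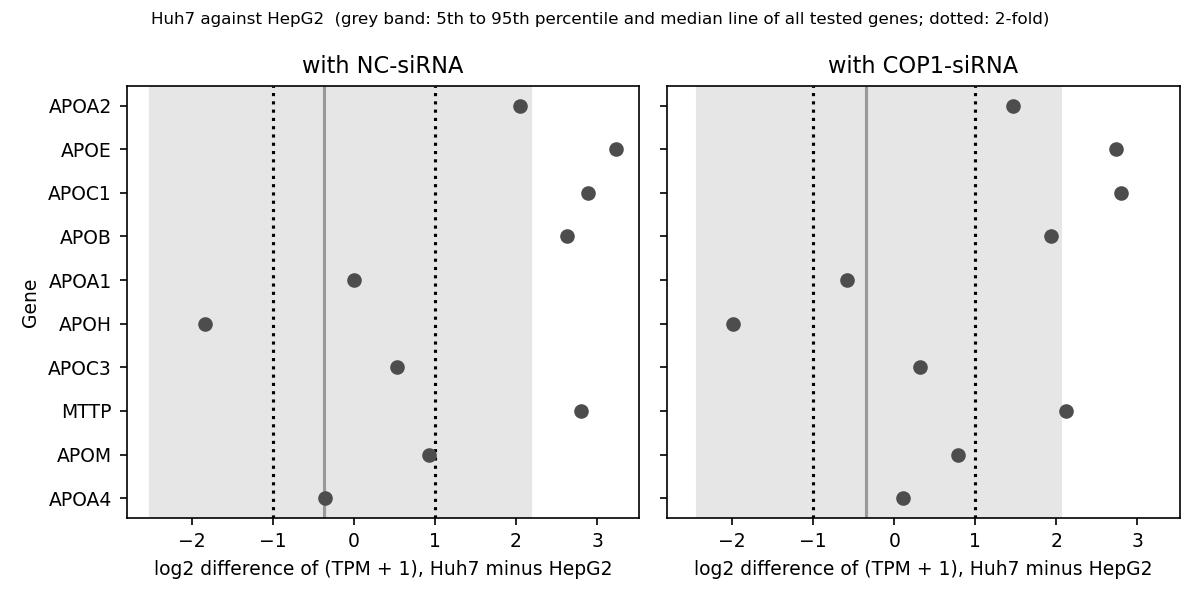
log2 difference of TPM + 1 between Huh7 and HepG2 for each of the 10 genes with NC-siRNA (left) and COP1-siRNA (right), 1 library per line and siRNA, with the 5th to 95th percentile of all tested genes in grey, their median as a grey line and 2-fold dotted. APOE, APOC1 and MTTP lie right of the band in both panels, and APOB does so with NC-siRNA only (2.63, against 1.94 with COP1-siRNA).

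The median over all genes tested was itself -0.37 with NC-siRNA and -0.35 with COP1-siRNA, and median-of-ratios scaling moved it to -0.13 and -0.12. Under that scaling APOM passed 2-fold as well, at 1.17 and 1.03. The sign of the APOA1 difference with NC-siRNA depended on the scaling, over a range of -0.10 to 0.26. All 10 hepatocyte markers were higher in Huh7 with either siRNA, 9 of them at least 2-fold with NC-siRNA and 8 with COP1-siRNA, with medians of 3.03 and 2.57. ALB was at 8117 and 6683 TPM in Huh7 and at 1509 and 1598 in HepG2. The part of this broader difference in the members' levels was not tested.

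Of the 6 ratios between members, those of APOA2, APOC3 and APOB with APOA1 and of APOB with MTTP did not overlap between the lines, and those of APOC1 with APOE and of APOA4 with APOA1 did. Most single genes did not overlap either, with both Huh7 libraries above in 31% and both HepG2 libraries above in 56.5%. The share over ratios of other genes was not computed, so these counts are a description only. The APOA2 to APOA1 ratio of TPM was 14.7 and 13.1 in Huh7 and 3.57 and 3.17 in HepG2. The APOA1 to APOB ratio was 0.395 and 0.388 in Huh7 and 2.46 and 2.24 in HepG2, so APOB transcripts outnumbered those of APOA1 in Huh7 and the reverse held in HepG2. The APOC3 to APOA1 ratio was 0.158 and 0.171 in Huh7 and 0.108 and 0.0912 in HepG2. The APOC1 to APOE ratio was 0.307 and 0.372 in Huh7 and 0.390 and 0.353 in HepG2. The APOA4 to APOA1 ratio was 0.00537 and 0.00910 in Huh7 and 0.00810 and 0.00542 in HepG2. It was thus lower in Huh7 with NC-siRNA and higher in Huh7 with COP1-siRNA, at the low level of APOA4. For APOA1, APOC1, APOE and APOM the coverage per TPM was lower than for most genes. It was so to a like degree in every library for APOA1 (0.698 to 0.703 times the library's usual value), APOE (0.639 to 0.640) and APOM (0.574 to 0.581). For APOC1 it differed slightly between the lines, at 0.683 and 0.681 in Huh7 and 0.703 and 0.708 in HepG2.

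Several members are neighbours in the genome. APOE and APOC1 lie next to each other on chromosome 19 (GRCh38, chr19:44905796-44909395 and chr19:44914325-44919346, both on the plus strand), followed by APOC4 and APOC2. APOA4, APOC3 and APOA1 lie together on chromosome 11 (chr11:116820700-116823304, chr11:116829907-116833072 and chr11:116835751-116837950), beside APOA5. The others are on separate chromosomes, with APOA2 at chr1:161222292-161223628 (minus strand), APOB at chr2:21001429-21044073 (minus strand), APOH at chr17:66212033-66229415 (minus strand), APOM at chr6:31652404-31658210 (plus strand) and MTTP at chr4:99564078-99623997 (plus strand). In the first cluster APOC2, the activator of lipoprotein lipase, was at 833 and 683 TPM in Huh7 and 60.3 and 62.1 in HepG2, a log2 difference between lines of 3.77 and 3.44. Its reads may be shared with the readthrough gene APOC4-APOC2 (87.8, 74.97, 4.5 and 6.0 TPM in the same order), so its value is uncertain, as is that of APOC1, whose near copy APOC1P1 was at 0.54 to 2.74 TPM. TOMM40, the gene just before APOE, encodes a pore of the mitochondrial outer membrane and stood at 325 and 267 TPM in Huh7 and 257 and 253 in HepG2. The line differences along this stretch were thus uneven: with NC-siRNA they were 3.32 for BCL3, 2.16 for BCAM, 1.99 for NECTIN2, 0.34 for TOMM40, 1.01 for CLPTM1, 2.16 for RELB and -0.37 for CLASRP.

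In the chromosome 11 cluster no member reached 2-fold between lines. APOA5, which promotes the action of lipoprotein lipase, did so in the other direction, since it was listed at 0 and 0.07 TPM in Huh7 against 4.03 and 3.66 in HepG2. The flanking genes BUD13 and ZPR1 differed by -0.42 and -0.48 with NC-siRNA and SIK3, a kinase on the other side of APOA1, by 1.07. The windows of 150 kb around the clusters were chosen after the values had been seen.

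**Figure D4:**
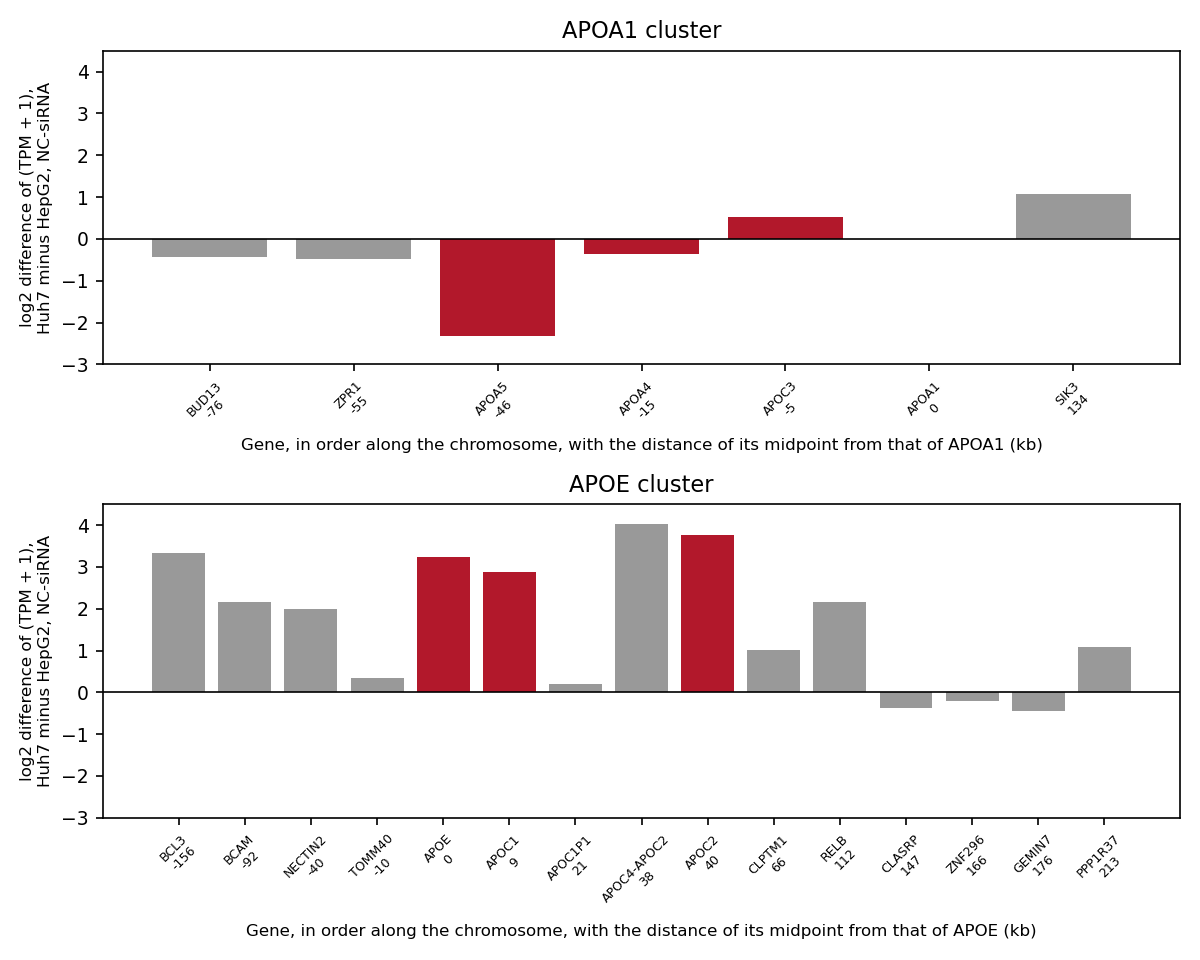
log2 difference of TPM + 1 between Huh7 and HepG2 with NC-siRNA for genes at 1 TPM or more in any library within 150 kb of the APOA1 cluster (top) and the APOE cluster (bottom), in chromosome order with the distance of each gene's midpoint from that of APOA1 or APOE in kb. Apolipoprotein genes are red and others grey, and the readthrough gene APOC4-APOC2 and the near copy APOC1P1 are among the grey ones. APOE, APOC1 and APOC2 stand at 3.23, 2.89 and 3.77, BCL3 and APOC4-APOC2 at 3.32 and 4.01 and TOMM40 at 0.34, while APOC3, APOA4 and APOA1 lie between -0.36 and 0.53.

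Promoter sequences of RefSeq (GRCh38.p14, 250 bases before to 50 after the start site) were found for 7 of the 10 members, in 10 windows. APOA1, APOB and APOC3 had no entry in the table used. The windows of APOE and APOC1, the neighbours that were higher in Huh7, and of APOH, the member that was higher in HepG2, are shown because they stand for the largest line differences in each direction. Capitals mark the letters searched for on both strands, and no matches overlapped in these windows. The letters GTTAAT stand for a core of sites of the factor HNF1, CAAAG for a core of HNF4A sites and TGTTTAC for a FOXA site. The general promoter elements sought were the TATA box as TATAAA and the GC box as GGGCGG, and the site of the factor AP-1 was sought as TGANTCA. The windows lie at chr19:44905546-44905845 (plus strand), chr19:44914422-44914721 (plus strand) and chr17:66229366-66229665 (minus strand), and the gene tables do not show which start site was used.
APOE: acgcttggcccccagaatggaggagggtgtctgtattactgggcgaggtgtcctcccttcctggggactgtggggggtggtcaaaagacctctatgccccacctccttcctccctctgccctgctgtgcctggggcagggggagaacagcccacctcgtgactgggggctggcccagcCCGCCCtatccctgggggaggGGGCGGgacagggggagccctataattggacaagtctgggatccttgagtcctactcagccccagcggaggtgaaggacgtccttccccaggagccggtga
APOC1: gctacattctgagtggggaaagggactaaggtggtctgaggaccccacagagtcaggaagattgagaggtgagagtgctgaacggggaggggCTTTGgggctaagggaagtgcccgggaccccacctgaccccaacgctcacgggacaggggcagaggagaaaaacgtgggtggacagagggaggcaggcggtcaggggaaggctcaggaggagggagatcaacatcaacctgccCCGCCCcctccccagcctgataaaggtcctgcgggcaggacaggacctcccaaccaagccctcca
APOH: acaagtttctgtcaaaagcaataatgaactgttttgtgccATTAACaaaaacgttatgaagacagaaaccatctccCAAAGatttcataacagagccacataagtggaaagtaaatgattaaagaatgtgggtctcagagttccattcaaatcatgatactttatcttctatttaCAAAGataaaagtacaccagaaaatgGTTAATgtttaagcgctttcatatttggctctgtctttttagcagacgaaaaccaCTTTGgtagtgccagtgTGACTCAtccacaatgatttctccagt

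The APOE and APOC1 windows are rich in G and C, at 65.0% and 62.3%, while the APOH window is at 35.0%. APOE holds 2 GC boxes and APOC1 holds 1, besides a CAAAG in APOC1. A GC box occurs in 44.95% and CAAAG in 47.5% of the 35116 promoter windows of the table. APOH holds 2 HNF1 cores, which begin at -210 and -49 bases from the start site, 3 matches of CAAAG, and the AP-1 letters from 23 bases after the start site. GTTAAT occurs in 6.88% and TGANTCA in 7.71% of all windows. Among the other members, the APOA2 window holds the FOXA letters at -42 from the start site, which 3.42% of all windows do. The upstream MTTP window holds 2 GC boxes, and the downstream one holds a CAAAG at -39 from its start site and the TATA letters at -227, which 11.5% of all windows hold. APOM holds 1 CAAAG, and the window of APOA4 and the other 2 of APOE hold none of the 6 motifs. These matches are of letters only and say nothing of whether a factor was bound.

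The pathway around the members was followed through 4 lists, of other apolipoproteins, of VLDL assembly and secretion, of plasma remodelling, receptors and cholesterol efflux, and of transcription factors known to act on apolipoprotein genes. Of the 16 other apolipoprotein genes, 7 were tested in Huh7 and 8 in HepG2, and none passed 2-fold between siRNAs. The medians were -0.15 and 0.05. The highest by mean TPM were APOC2, the clusterin gene CLU (303 and 261 TPM in Huh7, 16.6 and 19.3 in HepG2) and SAA4, an apolipoprotein of HDL that was near level between lines (126 and 108 against 105 and 109). Between the lines with NC-siRNA, 4 of 10 tested were 2-fold higher and 3 were 2-fold lower in Huh7. For this and the lists below, the shares over all genes tested with NC-siRNA were 14.7% higher and 27.9% lower. Between siRNAs, 1.08% of all genes tested in Huh7 and 0.934% in HepG2 passed 2-fold in either direction.

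For VLDL assembly and secretion, 1 of the 21 genes tested in Huh7 and 0 of the 20 tested in HepG2 passed 2-fold with COP1-siRNA. Of all tested genes, 1.08% and 0.934% did so in either direction. CIDEB, a lipid droplet protein that takes part in loading lipid onto VLDL, was at 1.85 TPM with NC-siRNA and 5.16 with COP1-siRNA in Huh7, a log2 difference of 1.11. In HepG2 CIDEB lay the other way, at 3.62 and 2.59 TPM (-0.36), at low TPM in both lines. Highest by mean TPM in this list stood P4HB, the disulfide isomerase that is the other subunit of the MTTP complex (1005 and 921 TPM in Huh7, 451 and 502 in HepG2), the small GTPase ARF1 (314 and 296, 780 and 806) and SURF4, a cargo receptor for lipoproteins (488 and 290, 172 and 135). The log2 differences of SURF4 were -0.75 and -0.35. With NC-siRNA 8 of the 21 genes tested were 2-fold higher in Huh7 and 2 lower, with a median of 0.60. P4HB itself differed by 1.15 between the lines, against 2.80 for MTTP, so the 2 subunits of the transfer complex did not differ equally.

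For remodelling, receptors and efflux, 1 of the 16 genes tested in Huh7 and 0 of the 18 tested in HepG2 passed 2-fold between siRNAs. The shares over all tested genes were 1.08% and 0.934%. SDC1, a heparan sulfate proteoglycan that takes up remnant particles, was at 99.0 TPM with NC-siRNA and 43.2 with COP1-siRNA in Huh7 (log2 difference -1.18), and at 29.4 and 25.1 in HepG2 (-0.22). The highest by mean TPM was the HDL receptor SCARB1, at 238 and 197 TPM in Huh7 and 61.2 and 63.7 in HepG2. With NC-siRNA 11 of 19 genes tested were 2-fold higher in Huh7 and 4 were 2-fold lower, with a median of 1.70.

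None of the transcription factors passed 2-fold between siRNAs, of 27 tested in Huh7 and 26 in HepG2. In Huh7 23 of the 27 were below 0, with a median of -0.27, and in HepG2 22 of the 26 were above 0, with a median of 0.10. Over all tested genes, 49.9% in Huh7 and 48.3% in HepG2 were above 0. The factors with the highest mean TPM were CEBPA (169 and 122 TPM in Huh7, 23.7 and 23.7 in HepG2), SREBF2 (94.1 and 74.8, 45.98 and 46.5) and CEBPB (88.8 and 67.9, 17.0 and 20.7). Between the lines with NC-siRNA, 18 of the 28 factors were 2-fold higher in Huh7 and 3 were 2-fold lower, with a median of 1.63. HNF4A, a nuclear receptor that drives many hepatocyte genes, was at 64.6 and 58.9 TPM in Huh7 and at 9.13 and 12.1 in HepG2.

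**Figure D5:**
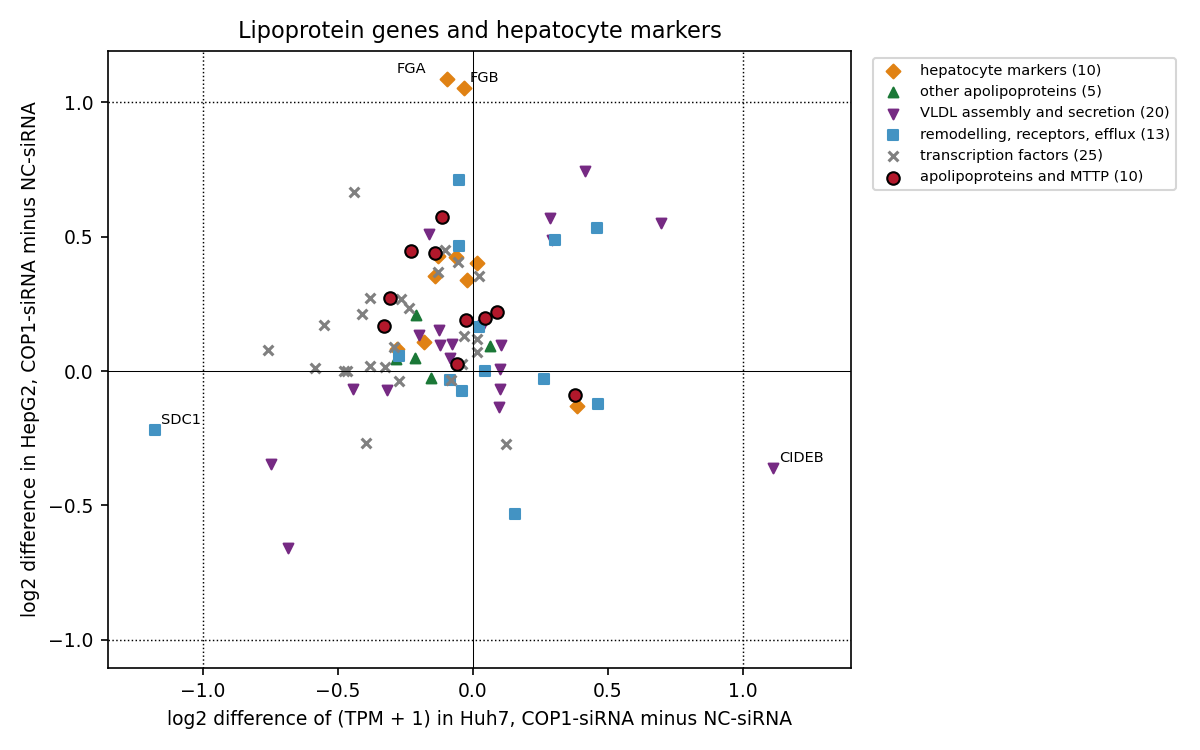
log2 difference of TPM + 1 between COP1-siRNA and NC-siRNA in Huh7 (x axis) and HepG2 (y axis), 1 point per gene tested in both lines, for the 10 members, the 4 lists and the hepatocyte markers, with the number of genes in the legend and 2-fold dotted. Most members lie in the upper left, with a range of -0.33 to 0.38 for Huh7 and of -0.09 to 0.57 for HepG2, among the hepatocyte markers. FGA and FGB pass 2-fold in HepG2 and SDC1 and CIDEB in Huh7.

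Finally, the genes whose pattern over the 4 libraries was nearest to that of APOA1, APOB and MTTP were sought among 10422 other genes with a mean of at least 5 TPM, by the Euclidean distance of log2(TPM + 1) after centring each gene. For APOB they were the complement protease gene C1R (distance 0.02), the basement membrane proteoglycan HSPG2 (0.08) and fibronectin FN1 (0.10). FN1 stood at 1062 and 965 TPM in Huh7 and 175 and 238 in HepG2. For MTTP they were LASP1, an actin-binding protein (0.09), HNF4A (0.09) and ORM1, an acute phase plasma protein (0.09). For APOA1 they were PLA2G15, a lysosomal phospholipase (0.08), CTH, which makes cysteine from cystathionine (0.08), and the non-coding RNA HAGLR (0.12). CTH was at 9.73 and 8.92 TPM in Huh7 and 9.67 and 14.5 in HepG2. With 4 libraries many genes share a pattern, and the distances are a description only.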

How the data were processed

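Total RNA of 4 transfected cultures was made into stranded poly(A) libraries. The submitters' processing notes name FastQC 0.11.7, Trimmomatic 0.38, HISAT2 2.1.0, StringTie 2.1.3b, edgeR and GRCh38; the annotation release is not given in the sources used here. Per library the authors deposited a gene table. The TPM deposited by the authors has the same sum in every library, the FPKM deposited is proportional to it, and the coverage signal deposited is reads per base, not scaled for depth. Gene names were absent, so NCBI Gene numbers were matched to RefSeq symbols (96.3% matched). Lines that shared a number were summed. Read counts were not used here, so neither depth nor counting error is known.

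Differences were log2 of TPM + 1 over genes at 1 TPM or more in at least 1 library compared, with 2-fold as the threshold and no test. Python 3.11.15, numpy 2.4.6, pandas 2.3.3 and matplotlib 3.10.9 were used. The calls were run on simulated data with changes well past 2-fold, which checks the code and not the results. The members and lists were chosen with earlier results of these data known. Named were all members, COP1, list genes past 2-fold between siRNAs, the 3 highest genes of each list and the 3 genes nearest to APOA1, APOB and MTTP, of which 2 list genes are not reported here; markers, neighbours of the clusters and genes of the closing observations were chosen after their values were seen. Alternatives were another pseudocount, FPKM, coverage, 3 other scalings, 2 other minimum levels, a 1.5-fold threshold and the highest of repeated lines in place of their sum.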

Additional observations from a re-analysis of the deposited data

Results flagged for a closer look

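Members that lay at least 0.2 from 0 on the log2 scale in each line, in opposite directions, were picked out, and the difference between the lines was not tested because each condition had 1 library. APOA2 lay at -0.31 in Huh7 and at 0.27 in HepG2. MTTP lay at -0.23 in Huh7 and at 0.45 in HepG2, but over the alternatives the Huh7 value of MTTP ranged from -0.23 to -0.17, so it did not always reach 0.2 in size. APOB and APOA1 had opposite signs too, but were closer to 0 in Huh7.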

How the results depend on the processing

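The labels carry no replicate numbers, and no fit that pairs the siRNAs within each line was made. With 1 library per line and siRNA no replicate could be left out. Counts were taken to hold within 1.5 times and medians within 0.1 on the log2 scale. The counts of members past 2-fold held under all alternatives. Between siRNAs they were 0 in both lines, also at a 1.5-fold threshold, though APOA4 and APOB came close to it. APOA4 in Huh7 had a plain TPM ratio of 1.54 and stayed under 1.5-fold with the pseudocount of 1. Its log2 difference ranged from 0.27 to 0.58 over the alternatives. APOB in HepG2 had a plain TPM ratio of 1.49 and a log2 difference of 0.57, which ranged from 0.55 to 0.60. The highest of these, with upper-quartile scaling, is past 1.5-fold, so the count of 0 at that threshold depends on the scaling. Between lines the counts were 5 higher and 1 lower, except that APOM joined the higher ones. APOM was at 1.17 and 1.03 under median-of-ratios scaling and also passed at the 1.5-fold threshold. With the members and the 10 highest genes left out of the total, it was at 1.04 with NC-siRNA. The member median between siRNAs ranged from 0.18 to 0.24 in HepG2. In Huh7 it was itself under 0.1 in size and was -0.03 with FPKM, -0.04 with upper-quartile scaling and -0.12 at a minimum of 5 TPM, against -0.09, so only its sign held. Those between lines moved from 1.48 with NC-siRNA to 1.36 with FPKM, 1.74 with median-of-ratios scaling, 1.60 without the members and the 10 highest genes and 2.04 at a minimum of 5 TPM, which removes APOA4, and from 1.13 with COP1-siRNA to 1.38, 1.26 and 1.47 under the last 3 of these. For the 4 lists together, 1 gene was higher and 1 lower in Huh7 and 0 in HepG2. A pseudocount of 0.1 gave 1 higher in HepG2, the sterol exporter ABCG1 at 0.41 and 1.62 TPM, and the 1.5-fold threshold gave 2 higher and 4 lower in Huh7 and 5 higher and 2 lower in HepG2. The share of all genes past 1.5-fold was not computed. In Huh7 the signs of APOC1 and APOC3, both near 0, changed with FPKM, and that of APOC3 with upper-quartile scaling, so the 7 members below 0 became 5 or 6. Ratios between genes moved by up to 1.43 times with coverage in place of TPM. The factor was alike in every library, though for APOC1 with APOE it was 1.07 in Huh7 and 1.10 to 1.11 in HepG2. No member had more than 1 line in a library, so taking the highest of repeated lines in place of their sum could not change its level.

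The limits are the single library per condition, the single COP1-siRNA, the unknown number of reads and the unequal knockdown. No protein or secreted lipoprotein was analysed here.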

Other observations

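Some genes of lipid transport were near or at 0 in 1 line. CES1, a carboxylesterase that hydrolyses stored lipid, was at 58.0 and 97.7 TPM in HepG2 and at 0.97 and 1.62 in Huh7 (NC-siRNA, then COP1-siRNA). LPL and ANGPTL8 were listed at 0 in both Huh7 libraries and stood at 1.43 and 1.38 TPM and at 6.52 and 3.44 TPM in HepG2. In the other direction, PON1, an esterase carried on HDL, was at 6.80 and 6.58 TPM in Huh7 and listed at 0 in both HepG2 libraries. A1CF, the partner of the enzyme that edits APOB RNA in the intestine, was at 57.6 and 50.04 TPM in Huh7 and 3.47 and 3.91 in HepG2, while the enzyme gene itself, APOBEC1, was listed at 0 in all 4 libraries.

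PLA2G12B, a protein known to act in the growth of triglyceride-rich particles, did not reach 2-fold but lay on the same side in both lines, with 22.2 TPM with NC-siRNA and 13.4 with COP1-siRNA in Huh7 and 3.76 and 2.02 in HepG2 (log2 differences -0.69 and -0.66). SOAT2, which makes cholesteryl ester, lay above 0 in both, at 4.19 and 7.41 TPM in Huh7 and 2.42 and 4.01 in HepG2 (0.70 and 0.55). These genes were chosen after their values were seen.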
